A study of Mus musculus with 8 samples.

Results

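The genes described are 55 markers of proliferation in mouse oligodendrocyte progenitors, the glial cells that divide and later form myelinating oligodendrocytes. They comprise 26 genes of S phase, from Mcm2 to Hells, and 29 genes of G2 and mitosis (G2/M), from Top2a to Birc5. They were taken by symbol from a deposited table of 24155 genes. All 55 were present, and all 55 passed the filter on low counts that left 18102 genes for testing. Primary progenitors were immunopanned, that is, captured on antibody-coated dishes, from male and female Ehmt1fl/fl;Ehmt2fl/fl pups at postnatal day 7, and were cultured in SATO medium with 2 mitogens, bFGF at 20 ng/mL and PDGF-AA at 10 ng/mL. In the cKO group, 4 cultures were infected with the adenovirus Ad-RFP-iCre, which carries Cre recombinase. In the control group, 4 cultures of the same floxed genotype received Ad-RFP, which carries the red fluorescent protein without Cre. Cells of both groups were exposed to virus for 6 hours, at a multiplicity of infection of 10, and collected 72 hours after infection. Ehmt1 and Ehmt2 encode the partner histone H3 lysine 9 methyltransferases GLP and G9a. Each of the batches 1, 3, 4 and 6 holds 1 cKO and 1 control library, so cKO was compared with control within batches. Cre acted in culture and in whichever cells the virus reached, and the labels leave unsaid whether separate animals gave the batches.

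A dividing cell copies its DNA in S phase and separates the copies in mitosis. Genes for the replication machinery are transcribed mainly at the G1/S border, where E2F transcription factors bind their promoters. Genes for the spindle, the kinetochore and the mitotic kinases peak later, in G2/M, where the MuvB complex with B-MYB and FOXM1 acts through cell cycle homology region (CHR) elements, often beside CCAAT boxes. In bulk RNA both sets are read as a measure of how many cells are cycling, and progenitors cultured with PDGF-AA and bFGF keep dividing. In these bulk libraries, fewer cycling cells and less RNA per cycling cell cannot be told apart.

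The promoters of 6 members are shown because E2F and CHR letters were found at different shares in the S phase and the G2/M genes. The sequences are the 250 bases before the annotated start, from RefSeq on GRCm38.p6 (mm10), read 5′ to 3′ on the gene's own strand. The windows lie for Mcm5 at chr8:75109259-75109508 on the plus strand, Hells at chr19:38930740-38930989 on the plus strand and Cdk1 at chr10:69352913-69353162 on the minus strand. They lie for Cdc20 at chr4:118437344-118437593 on the minus strand, Top2a at chr11:99024190-99024439 on the minus strand and Mki67 at chr7:135716380-135716629 on the minus strand. Capitals mark matches, on either strand, to the E2F letters TTTCCCGC, TTTCGCGC, TTTGCCGC or TTTGGCGC and to the CHR letters TTTGAA.
Mcm5: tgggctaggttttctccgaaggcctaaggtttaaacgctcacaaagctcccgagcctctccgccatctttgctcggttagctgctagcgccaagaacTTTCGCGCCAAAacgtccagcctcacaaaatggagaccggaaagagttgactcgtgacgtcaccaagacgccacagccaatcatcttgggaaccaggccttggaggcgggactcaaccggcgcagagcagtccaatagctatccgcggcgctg
Hells: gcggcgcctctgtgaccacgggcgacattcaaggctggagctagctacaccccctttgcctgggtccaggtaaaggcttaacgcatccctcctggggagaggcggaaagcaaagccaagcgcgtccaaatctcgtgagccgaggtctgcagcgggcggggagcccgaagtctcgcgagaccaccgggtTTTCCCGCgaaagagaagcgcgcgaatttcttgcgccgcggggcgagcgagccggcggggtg
Cdk1: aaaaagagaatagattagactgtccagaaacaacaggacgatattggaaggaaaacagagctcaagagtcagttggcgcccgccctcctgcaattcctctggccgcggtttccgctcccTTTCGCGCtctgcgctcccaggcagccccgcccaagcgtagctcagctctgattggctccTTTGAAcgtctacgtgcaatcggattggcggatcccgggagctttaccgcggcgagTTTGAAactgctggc
Cdc20: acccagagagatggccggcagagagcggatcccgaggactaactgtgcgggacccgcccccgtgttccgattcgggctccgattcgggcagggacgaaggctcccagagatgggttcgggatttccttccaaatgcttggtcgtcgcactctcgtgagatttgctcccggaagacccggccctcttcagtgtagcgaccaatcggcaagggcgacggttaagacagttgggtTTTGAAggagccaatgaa
Top2a: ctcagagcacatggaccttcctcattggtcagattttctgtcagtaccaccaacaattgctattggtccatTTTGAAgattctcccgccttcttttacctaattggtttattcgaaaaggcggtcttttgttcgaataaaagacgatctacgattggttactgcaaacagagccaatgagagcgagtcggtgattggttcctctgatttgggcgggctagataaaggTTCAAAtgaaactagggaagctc
Mki67: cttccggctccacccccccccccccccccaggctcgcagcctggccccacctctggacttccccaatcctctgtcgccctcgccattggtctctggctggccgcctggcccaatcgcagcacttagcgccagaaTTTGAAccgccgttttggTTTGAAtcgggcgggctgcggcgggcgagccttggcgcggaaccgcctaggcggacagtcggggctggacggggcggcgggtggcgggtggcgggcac
In Mcm5, a subunit of the replicative helicase, 2 overlapping E2F matches form 1 run. Hells, a chromatin remodeller, has 1 E2F match in this stretch. Cdk1, the mitotic kinase, was the only member with matches of both kinds, 1 E2F and 2 CHR. Cdc20, which activates the anaphase-promoting complex, has 1 CHR match, while Top2a and Mki67 have 2 each. Over windows of 300 bases, which add the 50 bases after the start, E2F letters occurred in 9 of 22 S phase genes (40.9%), 1 of 25 G2/M genes (4.0%) and 626 of 27025 genes of the table (2.32%). CHR letters occurred in 4 of 22 S phase genes (18.2%), 18 of 25 G2/M genes (72.0%) and 18.1% of all genes. CCAAT was present in 63.6% of the S phase windows, 80.0% of the G2/M windows and 37.9% of all windows. Of the E2F matches, that of 1 member, Mcm7, overlaps a CCAAT match. A match describes letters, not a bound site. Within the 250 bases before the start alone, CHR letters were in 8 of 25 G2/M genes (32.0%), against 16.3% of all genes. In the same 250 bases, E2F letters were in 6 of 22 S phase genes (27.3%), against 1.91% of all genes. No window was listed for Mcm4, Gins2, Pole, Ccne2, Ccna2, Aurkb, Kif20a and Tpx2.

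**Figure D1:**
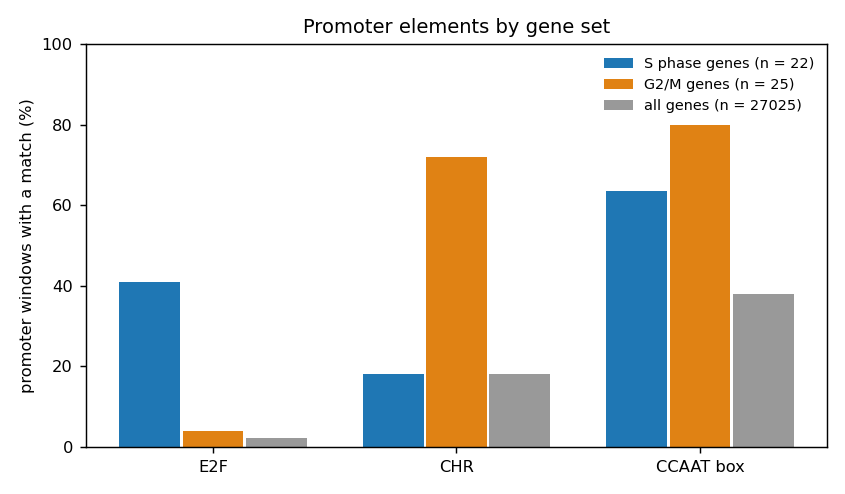
Share of 300-base promoter windows (vertical axis, percent) with at least 1 match to each element, for the S phase genes, the G2/M genes and all genes with a window. E2F letters stand out in the S phase bars (40.9%) and CHR letters in the G2/M bars (72.0%), while CCAAT is above its share in all genes in both sets.

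Libraries held 43542700 to 65374432 counts. Both targeted genes fell in all 4 batches. Ehmt1 averaged 41.5 ± 3.98 CPM (counts relative to the TMM-scaled library size) in cKO and 95.5 ± 5.58 CPM in control libraries (SD, n = 4 each), with a log2 fold change of -1.21 ± 0.04 (SE; edgeR adjusted p of 7.4e-08). Ehmt2 averaged 58.4 ± 5.86 CPM in cKO and 177 ± 17.1 CPM in control libraries (SD, n = 4 each), with a log2 fold change of -1.60 ± 0.03 (SE; edgeR adjusted p of 2.2e-09). Whole-gene counts include exons outside the floxed segments, so these levels are not those of intact transcripts. All 10 progenitor markers, among them Pdgfra, Cspg4, Olig1, Olig2 and Sox10, averaged at least 1 CPM in both groups. Their summed levels were 8456 to 12650 CPM in cKO and 9190 to 14040 CPM in control libraries. Gpr17, 1 of the 10, held much of the range of this sum. It had 160, 524, 4286 and 2879 CPM in cKO batches 1, 3, 4 and 6. In the matching control libraries it had 102, 488, 5377 and 3905 CPM.

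Few S and G2/M genes passed the test of cKO against control over all 4 batches, in either direction. A gene that did not pass is not thereby shown to have equal levels. With batch as a block, 2 of 55 members rose in cKO cells, 2 fell and 51 did not pass the test (7.27% called), whereas 3706 of 18102 genes passed (20.5%), 10.0% higher and 10.4% lower. The test was edgeR's quasi-likelihood F test. Its p-values were adjusted by Benjamini and Hochberg over the 18102 genes, and 0.05 was the threshold. Among S phase genes, 2 of 26 rose, 1 fell and 23 did not pass, with a median log2 fold change of 0.065. Among G2/M genes, 1 of 29 fell and 28 did not pass, with a median of 0.028, while the median over all genes tested was -0.007. Member fold changes ran from -0.18 to 0.25 on the log2 scale. Without the replicate block 0 members passed, 0 members had an unadjusted p under 0.05 in that edgeR fit, and 3 genes of the whole table passed (0.0166%). The p-values measure the spread between batches of the cKO to control difference, which may be partly technical.

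**Figure D2:**
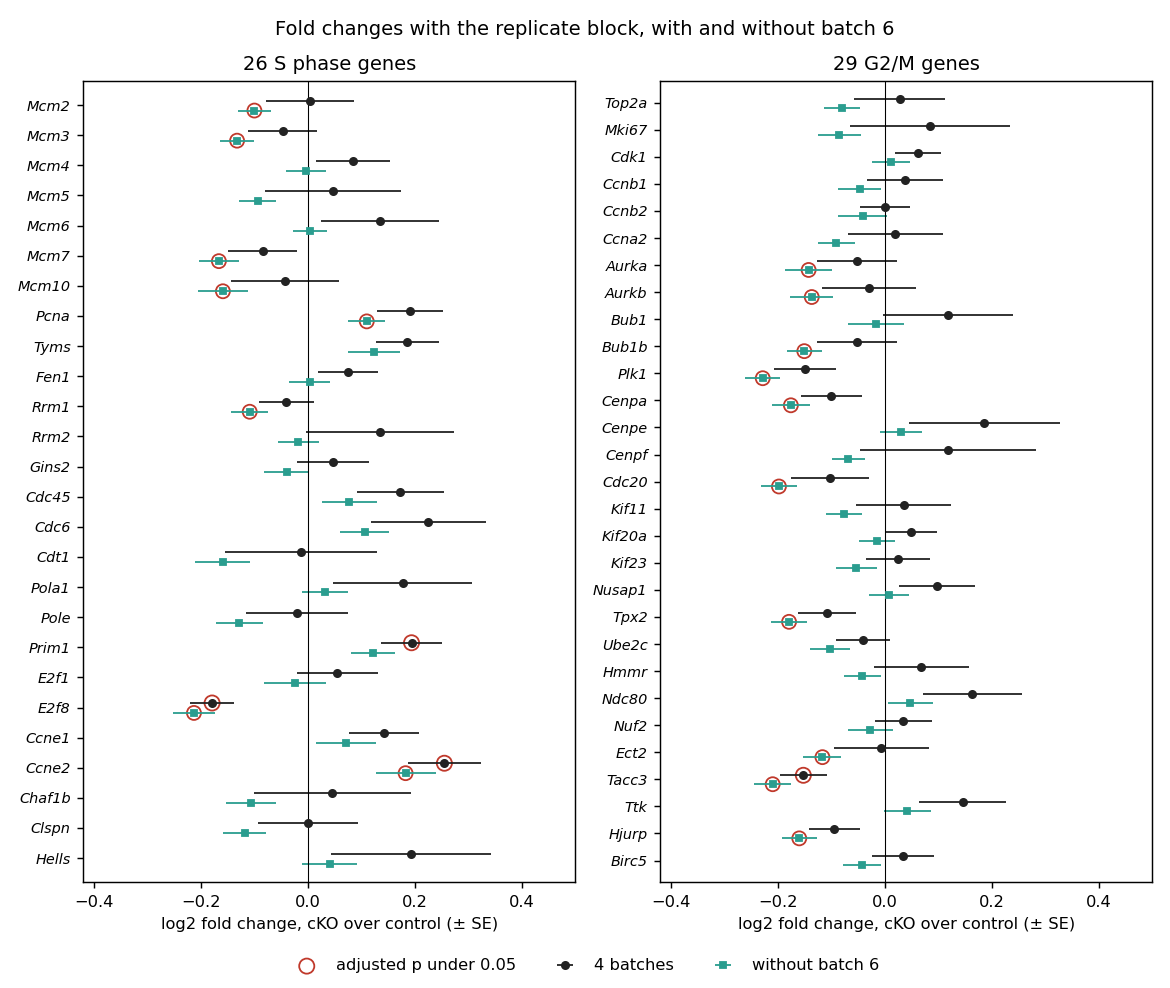
Log2 fold change of cKO over control (horizontal axis, ± SE) for each S phase gene (left) and G2/M gene (right), with all 4 batches (black circles) and without batch 6 (green squares); red rings mark adjusted p under 0.05. With 4 batches 4 genes are ringed, and without batch 6 most squares lie to the left of their circles and 18 are ringed.

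The genes that rose were Ccne2 and Prim1. Ccne2, cyclin E2, drives entry into S phase with CDK2. It stood at 39.1, 36.2, 17.1 and 10.8 CPM in cKO batches 1, 3, 4 and 6, against 37.5, 30.8, 14.2 and 7.44 CPM in the matching control libraries. The cKO library was the higher one in each batch, while the groups as wholes overlapped because batches 1 and 3 were far above 4 and 6. Its log2 fold change was 0.25 ± 0.07 (SE), with an edgeR adjusted p of 0.028. Prim1, the catalytic subunit of primase, which lays the RNA primers of DNA synthesis, had 56.5, 62.9, 23.6 and 20.1 CPM in cKO and 51.7, 57.4, 22.0 and 14.7 CPM in control libraries. It too was higher in cKO in 4 of 4 batches, with differences of 0.13, 0.13, 0.10 and 0.45 on the log2 scale, the last in batch 6. The fold change was 0.19 ± 0.06 (SE, log2), with an edgeR adjusted p of 0.038.

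The genes that fell were E2f8 and Tacc3. E2f8, an atypical E2F that represses E2F targets late in S phase, had 59.7, 60.9, 41.5 and 22.9 CPM in cKO and 72.1, 70.3, 46.3 and 23.9 CPM in control libraries. It was the only one of the 55 members that was lower in cKO in all 4 batches, as 21.3% of all genes were, and the only one lower in batch 6, where the difference was -0.06. The log2 fold change was -0.18 ± 0.04 (SE), with an edgeR adjusted p of 0.012. Tacc3, which stabilises microtubules of the mitotic spindle, had 127, 129, 59.2 and 59.2 CPM in cKO and 145, 146, 71.1 and 58.0 CPM in control libraries. The cKO level was below control in batches 1, 3 and 4 and 0.03 above it, on the log2 scale, in batch 6. The fold change was -0.15 ± 0.04 (SE, log2), with an edgeR adjusted p of 0.037. With 1 batch left out at a time, Ccne2 did not pass without batch 3 or 4, Prim1 without any of the 4, and E2f8 and Tacc3 without batch 1, 3 or 4. E2f8, Ccne2 and Tacc3 are among 16 members that overlap a gene on the other strand (Gm2788, Ints8 and Tmem129). The sources used here do not say whether strand was used in counting, so reads of such pairs cannot be told apart.

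The batches did not go the same way. The median log2 difference of cKO from control over the S phase genes was -0.050, -0.042, 0.030 and 0.428 in batches 1, 3, 4 and 6. Over the G2/M genes it was -0.116, -0.033, -0.092 and 0.296. In batches 1, 3 and 4 the sets thus lay within about 0.12 of 0, and in batch 6 both lay well above it, while the median over all genes stayed within 0.013 of 0 in each batch.

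Counted by gene, 11 of 55 members were higher in cKO in batch 1 (48.0% of all genes), 17 in batch 3 (47.8%), 21 in batch 4 (50.7%) and 54 in batch 6 (48.1%). The G2/M genes were the more one-sided set in batch 1, with 2 of 29 higher, and in batch 4, with 6 of 29, against 9 and 15 of 26 S phase genes. Higher in all 4 batches were 6 members (19.5% of all genes were), namely Pcna, Cdc45, Cdc6, Prim1, Ccne2 and Ndc80. The pattern of lower in batches 1, 3 and 4 and higher in batch 6 was found in 27 of 55 members, 9 S phase and 18 G2/M genes, and in 5.89% of all genes tested. This pattern was picked after the differences were seen, and each batch holds 1 pair of libraries. The counts by gene are therefore a description and not a test. For 46 of 55 members the widest of the 4 differences, by size, was that of batch 6.

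**Figure D3:**
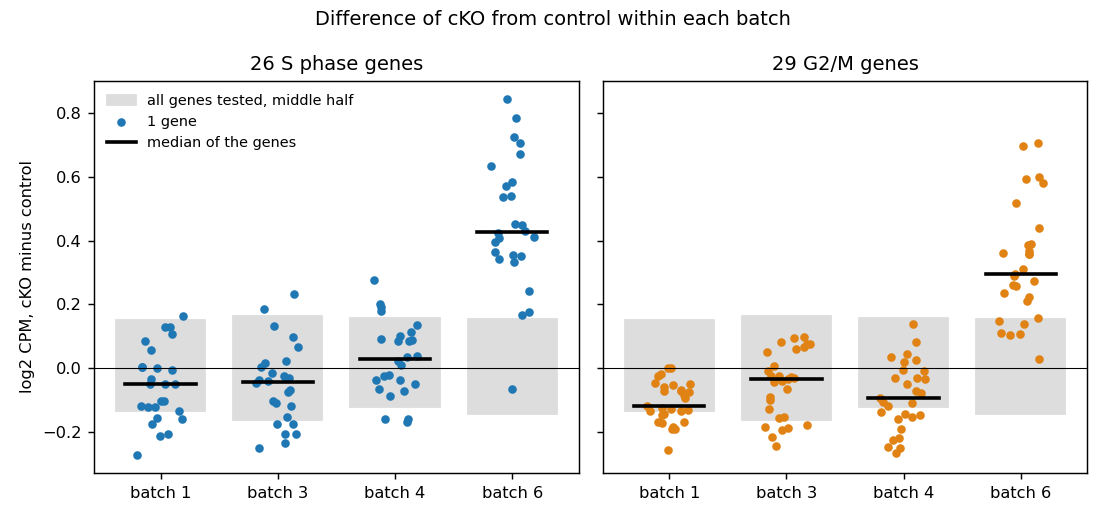
Difference of cKO from control in log2 CPM (vertical axis) within each batch, 1 point per gene, for the S phase genes (left) and the G2/M genes (right); black lines are medians and grey boxes the middle 50% of all genes tested. In batch 6, 54 of the 55 points lie above 0, with medians of 0.428 and 0.296.

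Summed over the list, the S phase genes gave 2953, 3011, 1381 and 976 CPM in cKO batches 1, 3, 4 and 6, against 3107, 3145, 1382 and 754 CPM in control. The G2/M genes gave 6357, 6815, 2739 and 2445 CPM in cKO and 6892, 7197, 2877 and 1884 CPM in control libraries. Batches 1 and 3 were the high ones in both groups, and the control library of batch 6 was the lowest of all 8 for either list. The ratio of cKO over control was 0.950, 0.957, 0.999 and 1.30 for the S phase sum, and 0.922, 0.947, 0.952 and 1.30 for the G2/M sum.

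**Figure D4:**
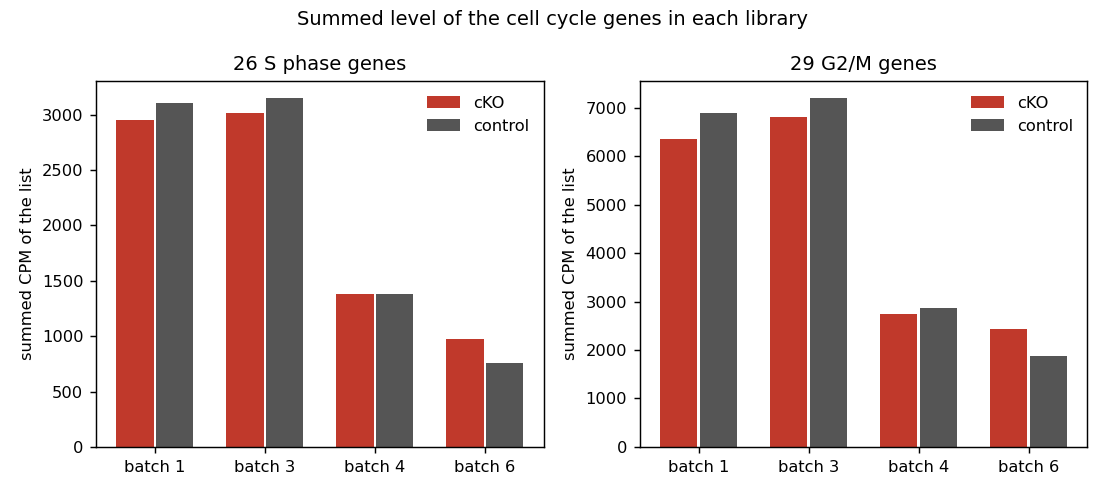
Summed CPM (vertical axis) of the 26 S phase genes (left) and the 29 G2/M genes (right) in each library, cKO in red and control in grey, by batch. The bars of batches 1 and 3 are more than 2 times as high as those of batches 4 and 6, and batch 6 is the batch in which the cKO bar clearly exceeds the control bar.

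The distance between batches was far wider than that between groups. In all 55 members the 4 libraries of batches 1 and 3 were above the 4 libraries of batches 4 and 6, as they were in 17.2% of all genes tested. All 55 passed edgeR's F test of the batch term at an adjusted p under 0.05, as did 66.7% of all genes, a test added after seeing the data. The library with the lowest level was the control library of batch 6 in 53 of 55 members. The highest over the lowest library had a median ratio of 3.43 in cKO and 4.87 in control for the S phase genes, and of 2.81 in cKO and 3.52 in control for the G2/M genes, beside 1.5 in cKO and 1.54 in control over all genes tested. Among control libraries the ratio was 8.69 for Cdt1, 8.16 for Chaf1b, 8.05 for Cdc6 and 7.68 for Hells, while at the other end it was 2.69 for Rrm1 and 2.52 for Tacc3. Ccnb2, cyclin B2, had 60.7, 69.7, 22.2 and 27.0 CPM in cKO and 63.2, 67.2, 24.4 and 24.5 CPM in control libraries. It was the only member whose ratio between batches was larger among cKO libraries (3.14) than among control libraries (2.76). For the 53 members lowest in the control library of batch 6, the control ratio is taken over that library. The wider control ratios are therefore not independent of the batch 6 difference.

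**Figure D5:**
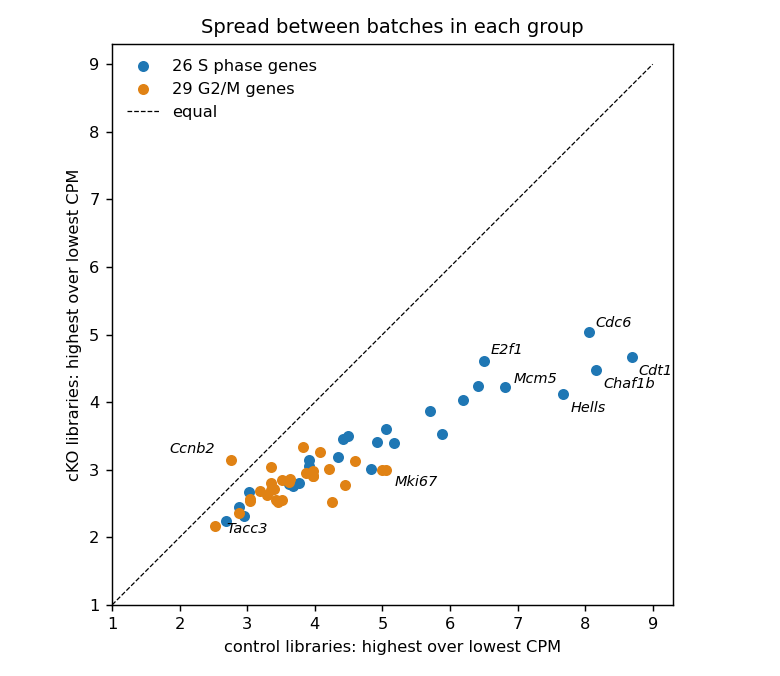
Highest over lowest library for each gene, among the 4 cKO libraries (vertical axis) and the 4 control libraries (horizontal axis), both as ratios of CPM; the dashed line marks equal ratios. All points except Ccnb2 lie below the line, with Cdt1, Chaf1b, Cdc6 and Hells at the far right.

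The replicative helicase is the ring of Mcm2 to Mcm7 with its partners Cdc45 and Gins2. None of these 8 genes passed, none had an unadjusted p under 0.05 in the edgeR fit, and their median log2 fold change was 0.047. Mcm2, a subunit of the ring and a usual proliferation marker, had 208, 216, 95.7 and 67.9 CPM in cKO and 226, 233, 101 and 53.6 CPM in control libraries. The cKO library was slightly lower in batches 1, 3 and 4 and higher in batch 6, and the groups overlapped throughout. Its log2 fold change was 0.00 ± 0.08 (SE), with an edgeR adjusted p of 0.98. Mcm7 had the most negative fold change of the 8, -0.08, and Cdc45 the most positive, 0.17. In batch 6 the 8 differences ran from 0.18 for Mcm7 to 0.58 for Mcm6.

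Origins are licensed by Cdc6 and Cdt1, which load the helicase, and fire with Mcm10, while Clspn (claspin) links forks to the checkpoint. None of these 4 passed or had an unadjusted p under 0.05. Cdt1 had 36.7, 36.4, 12.8 and 7.86 CPM in cKO and 40.9, 42.8, 13.4 and 4.92 CPM in control libraries. Its within-batch differences of -0.16, -0.23, -0.06 and 0.67 spanned 0.90, and it was the cKO library that was lower in batches 1, 3 and 4. Cdc6 differed by 0.11, 0.10, 0.12 and 0.78, always with cKO higher, for a fold change of 0.23 ± 0.11 (SE, log2; edgeR adjusted p of 0.20). Mcm10 and Clspn were lower in cKO in batches 1, 3 and 4 and higher in batch 6, by 0.41 and 0.43.

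Pola1 is the catalytic subunit of DNA polymerase alpha, Pole that of polymerase epsilon, Pcna the sliding clamp and Fen1 the nuclease that trims Okazaki fragments. Pcna had 263, 272, 134 and 97.8 CPM in cKO and 248, 260, 118 and 71.7 CPM in control libraries. The cKO library was the higher in all 4 batches, by 0.09, 0.07, 0.18 and 0.45 on the log2 scale. The fold change of 0.19 ± 0.06 (SE) did not pass, with an edgeR adjusted p of 0.072, and passed with DESeq2 (adjusted p of 0.026). Pola1 had 74.4, 78.3, 35.04 and 26.1 CPM in cKO and 76.97, 77.1, 31.9 and 16.0 CPM in control libraries. Its levels were close in batches 1 and 3, and the difference reached 0.71 in batch 6 (fold change of 0.18 ± 0.13, SE; edgeR adjusted p of 0.41). Pole and Fen1 had fold changes of -0.02 and 0.07.

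Of the nucleotide-supply genes, Tyms (thymidylate synthase) had a log2 fold change of 0.19 ± 0.06 (SE; edgeR adjusted p of 0.053), Rrm1 of -0.04 and Rrm2 of 0.13, the last 2 being the subunits of ribonucleotide reductase. Chaf1b, a subunit of the chromatin assembly factor CAF-1, had 44.9, 46.0, 16.4 and 10.3 CPM in cKO and 50.7, 49.4, 16.7 and 6.21 CPM in control libraries. Hells had 56.8, 51.7, 25.8 and 13.8 CPM in cKO and 58.9, 51.5, 22.6 and 7.67 CPM in control libraries. These 2 chromatin genes differed by at most 0.19 in size in batches 1, 3 and 4 and stood 0.72 (Chaf1b) and 0.84 (Hells) higher in cKO in batch 6, the value for Hells being the highest of any member. Neither passed, with fold changes of 0.05 ± 0.15 and 0.19 ± 0.15 (SE, log2) and edgeR adjusted p-values of 0.87 and 0.44.

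E2f1, an activating E2F at the G1/S border, had 23.8, 23.9, 9.97 and 5.198 CPM in cKO and 24.3, 25.1, 9.69 and 3.86 CPM in control libraries. The groups were close in batches 1, 3 and 4 and 0.43 apart in batch 6, with a log2 fold change of 0.05 ± 0.08 (SE; edgeR adjusted p of 0.67). Ccne1, cyclin E1, differed by 0.16, -0.04, 0.09 and 0.39 in batches 1, 3, 4 and 6, for a fold change of 0.14 ± 0.07 (SE, log2; edgeR adjusted p of 0.16).

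Among G2/M genes, Mki67 (Ki-67, which coats mitotic chromosomes) and Top2a (topoisomerase II alpha, which untangles them) are the usual readouts. Mki67 had 1617, 1675, 645 and 558 CPM in cKO and 1767, 1860, 634 and 369 CPM in control libraries. Per kilobase of exon it was the highest of the 55 genes, at 112 CPM per kb in cKO and 115 CPM per kb in control, while Cdc6 was the lowest in control at 4.84 CPM per kb, with 5.36 in cKO. Its cKO level was lower in batches 1 and 3 and 0.60 higher on the log2 scale in batch 6, for a fold change of 0.08 ± 0.15 (SE; edgeR adjusted p of 0.76). Top2a had 864, 940, 386 and 334 CPM in cKO and 936, 945, 418 and 261 CPM in control libraries. It was lower in cKO in batches 1, 3 and 4 and higher in batch 6, with a fold change of 0.03 ± 0.09 (SE, log2; edgeR adjusted p of 0.86).

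None of the 8 mitotic cyclins and kinases passed, and 1, Plk1, had an unadjusted p under 0.05. Cdk1, the kinase that starts mitosis, had 181, 197, 82.2 and 64.8 CPM in cKO and 186, 186, 82.6 and 55.5 CPM in control libraries. Ccnb1, its cyclin B1 partner, had 157, 179, 67.6 and 66.6 CPM in cKO and 164, 171, 74.6 and 53.6 CPM in control libraries. Both were lower in cKO in batches 1 and 4 and higher in batches 3 and 6, with fold changes of 0.06 ± 0.04 for Cdk1 and 0.04 ± 0.07 for Ccnb1 (SE, log2; edgeR adjusted p-values of 0.36 and 0.76). Plk1, polo-like kinase 1, differed by -0.25, -0.21, -0.22 and 0.11, giving -0.15 ± 0.06 (SE, log2; edgeR adjusted p of 0.11). Ccna2 (cyclin A2), Aurka and Aurkb (the Aurora kinases) and Birc5 (survivin, a partner of Aurora B) had fold changes between -0.05 and 0.03, and all 4 were lower in cKO in batches 1, 3 and 4 and higher in batch 6.

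The spindle checkpoint set held the kinases Bub1 and Ttk, the checkpoint protein Bub1b, and Cdc20 and Ube2c, which act with the anaphase-promoting complex. It gave 0 genes past the test and 0 with an unadjusted p under 0.05 in edgeR. Bub1 had 67.2, 71.3, 29.7 and 25.7 CPM in cKO and 75.6, 66.8, 29.01 and 17.02 CPM in control libraries. It was lower in cKO in batch 1 and 0.59 higher in batch 6, with a fold change of 0.12 ± 0.12 (SE, log2; edgeR adjusted p of 0.57). Cdc20 was lower in cKO in batches 1, 3 and 4, with differences of -0.19, -0.24 and -0.16, and 0.21 higher in batch 6.

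At the centromere, Cenpa is the histone H3 variant that marks the site, Hjurp its chaperone, Cenpe a motor, Cenpf a fibrous kinetochore protein, and Ndc80 and Nuf2 bind microtubules. None of these 6 passed or had an unadjusted p under 0.05 in edgeR. Cenpf had 395, 386, 157 and 159 CPM in cKO and 416, 413, 160 and 97.8 CPM in control libraries. The groups were close in batches 1, 3 and 4, and the control library of batch 6 stood alone at the bottom, 0.70 below its cKO partner on the log2 scale (fold change of 0.12 ± 0.16, SE; edgeR adjusted p of 0.68). Cenpa and Hjurp were lower in cKO in batches 1, 3 and 4, by 0.13 to 0.23 for Cenpa and by 0.11 to 0.19 for Hjurp, and higher in batch 6 by 0.15 and 0.11.

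Of the spindle and cytokinesis genes, Tacc3 fell and the other 7 of 8 did not pass. These are the motors Kif11, Kif20a and Kif23, the microtubule-binding Nusap1, Tpx2 and Hmmr, and Ect2, which activates RhoA at the division furrow. Their fold changes lay between -0.11 for Tpx2 and 0.10 for Nusap1, and all 8 were higher in cKO in batch 6 and lower in batch 1.

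Leaving out both libraries of batch 6 changed the calls. In 3 batches, 2 members rose and 16 fell, that is 2 higher and 6 lower S phase genes and 10 lower G2/M genes, where 19.0% of the 18052 genes tested passed, 9.43% higher and 9.58% lower. The median log2 fold change was then -0.02 for S phase genes and -0.08 for G2/M genes. Higher were Pcna (0.11 ± 0.03, SE, log2) and Ccne2 (0.18 ± 0.06), with edgeR adjusted p-values of 0.047 and 0.044. Among the lower G2/M genes, Plk1 fell by 0.23, Tacc3 by 0.21, Cdc20 by 0.20, Tpx2 by 0.18 and Cenpa by 0.18 on the log2 scale, with edgeR adjusted p-values of 0.0013, 0.0024, 0.0034, 0.0053 and 0.0075. The other 5 were Hjurp, Bub1b, Aurka, Aurkb and Ect2. The lower S phase genes were E2f8, Mcm7, Mcm10, Mcm3, Rrm1 and Mcm2, from -0.21 for E2f8 to -0.10 for Mcm2. In all, 18 members passed without batch 6, against 4 with all batches. Batch 6 is singled out here because its differences stood apart, so these calls are a description and not a test of a fall. Each of the 16 that fell was higher in cKO in batch 6, with the exception of E2f8. With batch 1, 3 or 4 left out instead, 2, 0 and 0 members passed.

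The median distance between batches was wider for S phase genes with E2F letters in their window than for those without. The 9 S phase genes with such letters had a median highest-over-lowest ratio of 4.12 among cKO libraries and 6.41 among control libraries, and a median batch 6 difference of 0.58. The 13 without them had a ratio of 3.18 among cKO and 4.34 among control libraries, and a batch 6 difference of 0.41. Ranges of the control ratio overlapped, from 3.77 to 8.69 with and from 2.69 to 8.16 without. For CHR letters in G2/M genes, the 18 with a match had medians of 2.84 in cKO, 3.57 in control and 0.28 for the batch 6 difference, and the 7 without one had 2.69, 3.35 and 0.31. These are descriptions without a test.

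Other genes of the same pathways were also higher in cKO mainly in batch 6. Among 53 other DNA replication genes, 7 rose and 46 did not pass (13.2% called), a share near the 10.0% of all genes called higher and below the 20.5% called in either direction. Those with the smallest p were Orc4, a subunit of the origin recognition complex (0.22 ± 0.05, SE, log2), Tipin, a fork protection factor (0.16 ± 0.04), and the clamp loader subunits Rfc3 (0.18 ± 0.05) and Rfc4 (0.21 ± 0.06), with edgeR adjusted p-values of 0.010, 0.019, 0.019 and 0.023. All 4 were higher in cKO in 4 of 4 batches. The median differences of the list were -0.052, -0.015, 0.014 and 0.288 in batches 1, 3, 4 and 6. Without batch 6 edgeR called 6 of these 53 genes higher and 9 lower, where 9.43% and 9.58% of all genes were. Among 62 other mitosis genes, 0 passed in edgeR, 9 had an unadjusted p under 0.05, and DESeq2 called 3 higher. Their median differences by batch were -0.113, -0.091, -0.086 and 0.266, and without batch 6 edgeR called 19 of the 62 lower, beside the same 9.58%.

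Of 18 G1 cyclins, kinases and pocket proteins, 5 fell and 13 did not pass (27.8% called), beside 20.5% of all genes called in either direction and 10.4% lower. Lower in cKO in all 4 batches were 7 of the 18, as were 21.3% of all genes. Cdk2, the kinase bound by cyclin E, averaged 40.2 ± 15.1 CPM in cKO and 50.9 ± 20.1 CPM in control libraries (SD, n = 4 each), and was lower in cKO by 0.33, 0.40, 0.27 and 0.33 in batches 1, 3, 4 and 6. Its log2 fold change was -0.33 ± 0.04 (SE), with an edgeR adjusted p of 3.0e-04. Ccnd3, cyclin D3 (-0.19 ± 0.03), Myc, a driver of growth genes (-0.28 ± 0.05), and Rbl2, the pocket protein p130 (-0.16 ± 0.04, SE, log2), were also lower in all 4 batches, with edgeR adjusted p-values of 0.0028, 0.0031 and 0.029. Cdk6, the remaining gene of the 5, had the most negative fold change of the list, -0.49 ± 0.12 (SE, log2; edgeR adjusted p of 0.039). Its differences were -0.56, -0.91, -0.29 and -0.22 in batches 1, 3, 4 and 6. Ccnd1, cyclin D1, had a fold change of 0.21 ± 0.09 and did not pass (edgeR adjusted p of 0.16).

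Of 16 regulators in the E2F, DREAM and FOXM1 group, 1 fell (6.25% called), E2f6, a repressive E2F (-0.16 ± 0.04, SE, log2; edgeR adjusted p of 0.0093). Foxm1 and Mybl2, which drive G2/M genes, did not pass, with fold changes of -0.10 ± 0.06 and 0.01 ± 0.08 (edgeR adjusted p-values of 0.30 and 0.97). Foxm1 was lower in cKO in batches 1, 3 and 4 and 0.16 higher in batch 6. Of 15 CDK inhibitors and quiescence genes, 6 fell and 1 rose (46.7% called), beside 20.5% of all genes, 10.4% lower and 10.0% higher. The lower ones included Btg2, an antiproliferative gene (-0.28 ± 0.04), Cdkn1c, the inhibitor p57 (-0.58 ± 0.11), Cdkn3, a CDK phosphatase (-0.35 ± 0.09), and Gadd45b, a stress response gene (-0.52 ± 0.13, SE, log2), with edgeR adjusted p-values of 6.3e-04, 0.0080, 0.018 and 0.020. Cdkn1a (p21) and Cdkn1b (p27) had fold changes of 0.32 ± 0.11 and 0.00 ± 0.04 and did not pass (edgeR adjusted p-values of 0.11 and 0.95).

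Markers of other states and cell types differed between groups and batches as well. Of 10 tested markers of differentiated oligodendrocytes (11 were listed), 7 rose in cKO, where 10.0% of all genes did, and their summed level was 851, 368, 3121 and 1248 CPM in cKO batches 1, 3, 4 and 6 and 606, 286, 2002 and 1142 CPM in control libraries. The ratio of cKO over control of this sum was 1.40, 1.29, 1.56 and 1.09. Gene by gene, the median log2 difference of these markers was 0.564, 0.726, 0.969 and 0.637, so batch 6 was the lowest of the 4 by the sum and not by the median. Among those that rose were Aspa (1.97 ± 0.21), Mag (0.63 ± 0.07) and Cldn11 (0.85 ± 0.12, SE, log2), with edgeR adjusted p-values of 2.1e-04, 3.2e-04 and 0.0099. They averaged 1.39, 27.3 and 74.2 CPM in cKO and 0.363, 17.0 and 40.5 CPM in control, Aspa being near the floor. Mog and Ermn, which also rose, averaged under 2 CPM in both groups. Of 10 progenitor markers 2 fell, Pdgfra (-0.31 ± 0.03) and Ptprz1 (-0.11 ± 0.03), and 1 rose (30% called, against 20.5% of all genes), Lhfpl3 (0.13 ± 0.03, SE, log2), with edgeR adjusted p-values of 2.3e-04, 0.035 and 0.018.

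Astrocyte markers summed to 720 to 2239 CPM in cKO and 741 to 2414 CPM in control libraries, with 2 of 8 higher and 3 lower. Neuron markers summed to 1020 to 1670 CPM in cKO and 936 to 1633 CPM in control libraries, with 5 of 10 higher. Over all genes tested, 10.0% were called higher and 10.4% lower. Much of each sum came from 1 gene. Slc1a3 averaged 944 CPM in cKO and 1137 CPM in control, and Map2 966 CPM in cKO and 970 CPM in control. The 3 microglia markers of the table, 1 of them tested, stayed under 2 CPM in sum in every library, and so did the 5 fibroblast markers. Endothelial and mural markers summed to 4.35 to 10.7 CPM in cKO and 3.82 to 13.95 CPM in control libraries, with 1 of 6 higher. What part cell composition has in the batch differences of the S and G2/M genes was not tested.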

How the data were processed

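Polyadenylated RNA of 8 cultures was sequenced, 4 cKO and 4 control. Per the submitters' processing notes, the authors used Partek, cutadapt, STAR and DESeq2 with the mm10 genome. The sources used here do not give versions, gene annotation or strand use in counting. Per the labels' protocols, mRNA was captured on oligo-dT beads and fragmented, from samples with a RIN of 8 or more. The authors deposited estimated counts (expected counts) per gene, not normalized, of which 44.5% are not whole (tolerance 0.01).

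Counts were rounded. Genes were filtered with edgeR's filterByExpr (minimum count 10), scaled by TMM and tested with glmQLFit (robust) and glmQLFTest in edgeR 4.0.16 (R 4.3.3), 2-sided, with batch as a block and Benjamini-Hochberg adjustment over 18102 genes. The script was tested on simulated data. Within-batch differences are log2 CPM with a prior count of 2. CPM per kb used the exon union of GENCODE vM21. Promoter letters were searched in the first RefSeq window listed for each gene (3 members had more than 1). The batch names in the labels pair the libraries: deviations from group means correlated at 0.787, 0.791, 0.761 and 0.750 within batches 1, 3, 4 and 6 and at most 0.394 between batches. No libraries were duplicates (chi-square per degree of freedom of at least 55.45 within groups). Members, gene lists and motifs were chosen with earlier results of these data known. Values per library were given for members past the threshold, the 6 with the widest range of batch differences among those of at least 5 CPM, and 7 usual readouts. Of other lists, up to 4 genes with the smallest p were taken, and not all are printed; other genes were named after their values were seen. Alternatives were no block, RLE and upper-quartile factors, no filter, at least 1 CPM in 4 libraries, DESeq2 1.42.0, limma-voom (limma 3.58.1), a prior count of 0.5 and each batch left out.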

Additional observations from a re-analysis of the deposited data

Results flagged for a closer look

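In 19 sets of log2 differences of cKO from control, 1 value per batch (2 list medians and 17 genes), and in 42 sets of levels within cKO or within control, a value was looked for that stood far from the others (a gap to the nearest value, relative to the whole range, above Dixon's critical value at 95%). It was found in 4 of the 19 sets of differences and in 0 of the 42 sets of levels. Chance gives about 1 in 20 for independent sets not chosen by their values. These sets share the same 8 libraries, and 6 of the genes, Cenpf among them, were chosen for the widest range of the differences, so the counts are a description and not a test. The S phase median was 0.428 in batch 6, against -0.050, -0.042 and 0.030 in batches 1, 3 and 4. Prim1 was at 0.451 in batch 6, Cenpf at 0.704 and Mcm2 at 0.341, each higher in cKO, with the other 3 batches close together. Over all members, 5 of 26 S phase and 8 of 29 G2/M genes had 1 batch this far from the others. In each of the 4 results the batch standing apart was batch 6, whose control library had the lowest level of 53 of the 55 genes.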

How the results depend on the processing

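The replicate block decides most calls: without it the counts of higher and lower genes were 1 and 2, and 0 in every list of the report. With 1 batch left out at a time, all genes tested gave 1127 to 1702 higher and 910 to 1730 lower, S phase genes 0 to 2 higher and 0 to 6 lower, and G2/M genes 0 to 10 lower. The other replication genes gave 2 to 6 higher and 0 to 9 lower, the other mitosis genes 0 to 2 higher and 0 to 19 lower, G1 regulators 3 to 6 lower, the E2F group 0 to 4 lower, and CDK inhibitors 0 to 2 higher and 1 to 5 lower. Progenitor markers gave 0 to 1 higher and 1 to 3 lower, neuron markers 3 to 5 higher, and microglia and endothelial markers 0 to 1 higher each. Mcm2 had a log2 fold change of 0.00 ± 0.08 (SE) with all batches, which gives no direction. Without batch 6 the Mcm2 value was -0.10 (edgeR adjusted p of 0.049), and with a batch left out it ran from -0.10 to 0.047. With upper-quartile factors G2/M genes had 0 lower, as Tacc3 reached an adjusted p of 0.056, other mitosis genes 1 higher, and progenitor markers 1 lower. With at least 1 CPM in 4 libraries, other mitosis genes had 1 higher, differentiated markers 3 higher, and microglia, endothelial and fibroblast markers 0 higher. With DESeq2, other mitosis genes had 3 higher and microglia and endothelial markers 0, and with limma-voom other mitosis genes had 1 higher and 1 lower. With no filter astrocyte markers had 1 higher. The causes were not tested. Under RLE, upper-quartile, no filter, 1 CPM, DESeq2 and limma-voom, 4, 4, 5, 5, 5 and 4 members passed, and the median fold change of all genes moved by less than 0.02. Batch medians of both member lists kept within the spread between batches (SD of the 4 batch medians) under every alternative run. That spread includes batch 6 and exceeds the medians of batches 1, 3 and 4 in size. The check could therefore miss a change of their sign. Only 4 pairs of libraries limit what can be seen: a member whose batches disagree has a standard error of up to 0.16 (log2), so a p that misses the threshold does not show equal levels.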
